A study of Mus musculus with 56 samples.

Results

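Microglia, the resident macrophages of the brain, that met a rule on 9 genes of G2 and mitosis at postnatal day 9 (P9) made up 1696 of the 8867 P9 cortical microglia measured by droplet sequencing, or 19.1%. A cell entered this group when it held at least 4 UMIs (unique molecular identifiers, 1 for each captured RNA molecule) summed over 9 genes: Mki67, Top2a, Ube2c, Birc5, Ccnb2, Cdc20, Cenpe, Prc1 and Nusap1. Before that count a cell needed at least 500 detected genes, under 10% mitochondrial UMIs, at least 1 UMI of the complement gene C1qa and fewer than 8 UMIs over 6 genes of border macrophages. These cells are called G2/M cells below, and they were set against the 5145 P9 microglia with no UMI of the 9 genes, called cells at 0. A further 2026 cells held 1 to 3 UMIs and belong to neither class. The 6 P9 libraries were 2 labelled ST2 KO, 2 labelled ST2 Het and 2 of wild-type mice, all on the B6 background, where ST2 is the IL-33 receptor encoded by Il1rl1 and the design text calls the controls littermates, and 2 wild-type libraries came from mice at postnatal day 28 (P28). Libraries are called first and second by the number in their labels. Cell barcodes of the first ST2 KO and first ST2 Het library carry the word redo in their names, and those of the first wild-type libraries carry no number and were matched to the label numbered 1 because the other set carries a 2. The whole single-cell data set held 15507 barcodes in 8 libraries of sorted cortical cells. Bulk RNA libraries of the same study were used for the 9 genes alone: cultured primary microglia exposed for 3 h to 200 ng/ml of IL-33 (7) or kept in medium (7), microglia sorted as Tau-GFP plus (8) or negative (8), and microglia whose sort was on bright (10, TMRM high) or dim (8, TMRM low) signal of TMRM, a dye drawn into mitochondria that hold a membrane potential. The TMRM libraries were of cortex at postnatal day 9. For the Tau-GFP mice the labels give the age as day 10 and the design text as day 9, and the culture protocol also names the inhibitor GSK-J4 without saying which cultures received it.

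A cell that has copied its DNA waits in G2 while cyclin B and CDK1 are built up, and then divides its chromosomes on a spindle and splits in cytokinesis. Exit from mitosis requires the anaphase-promoting complex, an enzyme that marks cyclins and other proteins for destruction. Microglia seed the brain from embryonic yolk sac precursors and multiply in place during the first weeks after birth. Of the 9 genes, Mki67 encodes the proliferation antigen Ki-67 on mitotic chromosomes, Top2a the topoisomerase that untangles sister DNA, and Birc5 survivin, a part of the chromosomal passenger complex. Ccnb2 encodes a mitotic cyclin, Cdc20 an activator of the anaphase-promoting complex and Ube2c the ubiquitin-conjugating enzyme that works with it. Cenpe encodes a kinetochore motor, Prc1 a protein that bundles the central spindle and Nusap1 a spindle microtubule binder.

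Many genes of this phase carry in their promoters a CHR element, TTTGAA, and CCAAT boxes bound by NF-Y. Both strings were searched on both strands in the RefSeq promoter windows of GRCm38.p6, each from 250 bases before to 50 bases after a gene's start. TTTGAA was present in 17.9% of the 32851 mouse windows, CCAAT in 37.4% and the pair in 6.95%. All 9 genes had a window, of which 6 held TTTGAA, 7 held CCAAT and 6 held both. Among 69 genes searched from the mitotic lists described below, 43 held TTTGAA, 51 held CCAAT and 37 held both. List genes on a single chromosome were left out of this count, as were list genes with no window under their symbol. The shares over all windows leave no chromosome out. The matches are strings in a window and not measured binding sites. Promoters of 4 of these genes are shown 5′ to 3′ on the gene's own strand because they hold both strings, with each match in capitals (TTCAAA and ATTGG are matches on the other strand), and that of Nusap1 because it holds neither. The windows lie at chr9:70421505-70421804 (minus strand) for Ccnb2, chr4:118437294-118437593 (minus strand) for Cdc20, chr2:164769679-164769978 (plus strand) for Ube2c, chr11:99024140-99024439 (minus strand) for Top2a and chr2:119618048-119618347 (plus strand) for Nusap1.
Ccnb2: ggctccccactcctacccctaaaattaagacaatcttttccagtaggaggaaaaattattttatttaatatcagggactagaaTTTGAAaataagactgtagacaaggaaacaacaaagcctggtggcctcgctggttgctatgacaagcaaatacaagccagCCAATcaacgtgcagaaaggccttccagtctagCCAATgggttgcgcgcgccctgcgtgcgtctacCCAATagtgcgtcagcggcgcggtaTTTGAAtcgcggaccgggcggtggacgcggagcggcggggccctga
Cdc20: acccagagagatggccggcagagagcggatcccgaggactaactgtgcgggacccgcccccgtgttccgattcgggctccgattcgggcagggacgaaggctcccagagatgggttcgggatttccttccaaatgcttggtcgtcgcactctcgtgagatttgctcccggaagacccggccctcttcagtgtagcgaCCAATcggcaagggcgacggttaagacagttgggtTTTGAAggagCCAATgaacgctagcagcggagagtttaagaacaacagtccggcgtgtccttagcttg
Ube2c: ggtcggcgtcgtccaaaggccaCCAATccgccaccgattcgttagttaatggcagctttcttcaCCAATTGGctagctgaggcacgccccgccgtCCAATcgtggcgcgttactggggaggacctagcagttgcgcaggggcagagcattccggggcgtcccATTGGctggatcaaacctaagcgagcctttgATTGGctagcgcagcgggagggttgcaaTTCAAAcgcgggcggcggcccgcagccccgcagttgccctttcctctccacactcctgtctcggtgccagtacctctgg
Top2a: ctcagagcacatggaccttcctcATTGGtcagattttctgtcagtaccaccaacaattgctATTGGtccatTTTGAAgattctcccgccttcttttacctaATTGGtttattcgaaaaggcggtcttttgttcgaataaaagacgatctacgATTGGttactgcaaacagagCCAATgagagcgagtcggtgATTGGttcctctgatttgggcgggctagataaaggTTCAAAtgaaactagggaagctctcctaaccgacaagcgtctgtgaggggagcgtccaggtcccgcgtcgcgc
Nusap1: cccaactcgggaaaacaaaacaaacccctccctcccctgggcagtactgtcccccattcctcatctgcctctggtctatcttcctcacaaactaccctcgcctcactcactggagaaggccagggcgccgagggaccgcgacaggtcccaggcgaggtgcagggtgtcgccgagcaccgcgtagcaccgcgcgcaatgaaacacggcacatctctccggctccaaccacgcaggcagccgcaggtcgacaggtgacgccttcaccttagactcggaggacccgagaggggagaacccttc
In Ccnb2 a TTTGAA began 167 bases before the start and another 4 bases after it, and 3 CCAAT boxes began 87, 54 and 21 bases before it. In Cdc20 the TTTGAA began 18 bases before the start, between CCAAT boxes at 53 and 8 bases before it. Birc5 also held neither string, and Cenpe held a CCAAT but no TTTGAA in its window.

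The P9 libraries held 4254276 to 11712016 UMIs each, and 657 to 2613 microglia passed the filters. Depth differed between the classes: the median was 5522 UMIs in G2/M cells and 4153 in cells at 0, and within each library the ratio lay between 1.23 and 1.37. The 10 microglia markers were each detected in 93.7% to 100% of G2/M cells, among them P2ry12 in 99.2%. Endothelial markers reached 3 UMIs in 1 G2/M cell, and mural, neutrophil and erythroid markers in none. Summed over the 9 lists of other cell types apart from border macrophages, 18.4% of G2/M cells and 18.9% of cells at 0 held at least 3 UMIs. Border macrophage genes, which the gate limits but does not remove, reached 3 UMIs in 36.2% of G2/M cells and 22.2% of cells at 0, and per library their summed level lay at 283 to 429 CPM in G2/M cells and 290 to 433 CPM in cells at 0. Doublets were not removed, and 137 of 15370 distinct barcode sequences occurred in 2 libraries, of which 1 was shared among G2/M cells. Il1rl1 was detected at 7.48 and 6.06 CPM (counts scaled to a fixed library total) in the microglia of the ST2 KO libraries and at 5.43 and 6.67 in those of the ST2 Het libraries. These reads come from the 3′ ends of transcripts, and the labels do not say which part of the gene is deleted, so these counts do not check the genotype labels.

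The cells were chosen by their summed UMIs of the 9 genes, so the values of these genes are a description with no test. A G2/M cell held a median of 13 of their UMIs (quartiles 7 and 23.25, highest 82) and a median of 6 of the 9 genes. All 9 genes were detected in 192 G2/M cells (11.3%), and 350 cells held 3 or fewer of them. Birc5 was detected most often, in 87.9% of G2/M cells, and Cenpe least often, in 45.3%. Summed over the G2/M cells of a library, Mki67 lay between 265 and 312 CPM, Top2a between 397 and 473, Ube2c between 338 and 530 and Ccnb2 between 305 and 401. Cdc20 lay at 136 and 227 CPM in the ST2 KO libraries, 235 and 208 in the ST2 Het libraries, and 245 and 231 in the wild-type libraries.

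Just outside the threshold, the 186 cells with 3 rule UMIs held 42.3 CPM of Ccna2, the cyclin of S phase and G2, and just inside it the 149 cells with exactly 4 held 77.5 CPM, where the cells at 0 held 4.18 CPM. The cyclin, kinase and checkpoint genes of the mitotic list summed to 507 CPM in cells at 0, 1207 CPM in cells with 3 rule UMIs and 1884 CPM in cells with 4, and reached 7825 CPM in the 208 cells with 32 or more. DNA replication genes followed another course. They summed to 1253 CPM in cells at 0, reached 3685 CPM in cells with 4 rule UMIs and lay at 2609 CPM in cells with 32 or more. The replication clamp gene Pcna likewise lay at 81.8, 275 and 155 CPM in these bins. Median depth moved with the bins, from 4153 UMIs in cells at 0 to 8006 UMIs in cells with 32 or more, and its part in these courses was not tested.

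**Figure D1:**
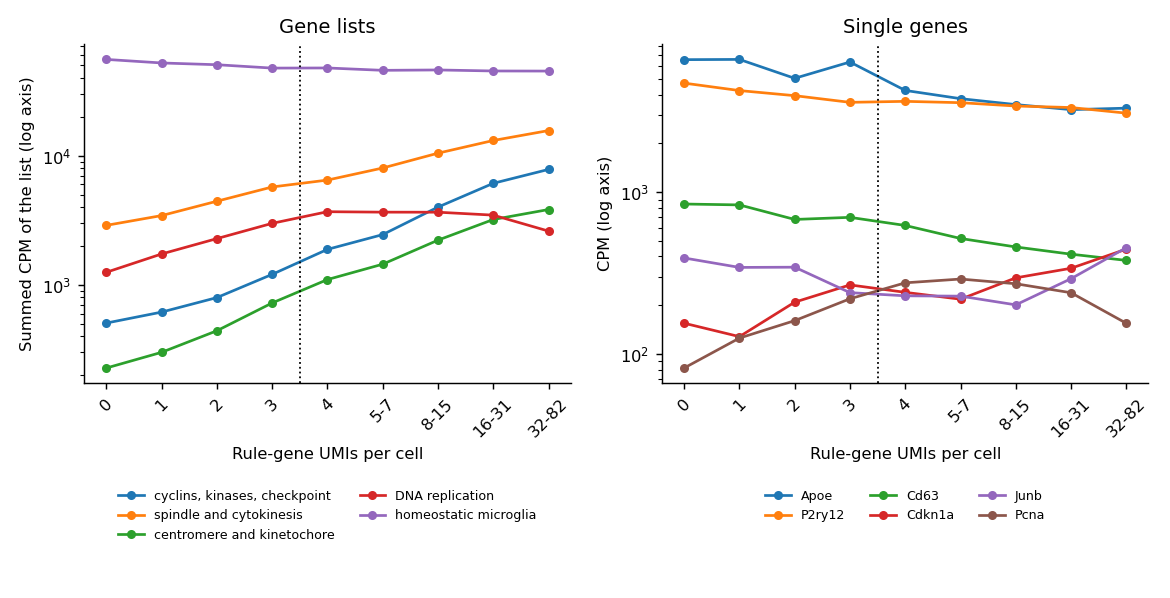
Summed CPM of 5 gene lists (left) and CPM of 6 genes (right), on log axes, in P9 microglia binned by the UMIs they held over the 9 rule genes, with the 6 P9 libraries pooled. The dotted line marks the threshold of 4 UMIs. Mitotic lists climb to the highest bin, DNA replication genes are highest in the middle bins and end at 2609 CPM, and Apoe and Cd63 decline.

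The G2/M cells were not uniform in how much S-phase RNA they held. At least 4 UMIs over 12 genes of the G1/S transition (Mcm2 to Mcm7, Pcna, Gins2, Dtl, Clspn, Cdc6 and Ung) were found in 663 G2/M cells (39.1%), and at most 1 in 744 (43.9%). The values of these 2 groups are a description, since the cells were sorted by measured values. Ccnb2 had a median of 176 CPM over the 6 libraries in the cells high in G1/S RNA (145 to 215) and 539 CPM in the cells low in it (517 to 655). Cdc20 lay at 112 CPM (76.0 to 135) and 356 CPM (174 to 405) in these 2 groups, and Cenpa, the histone variant that marks centromeres, at 212 CPM (183 to 248) and 529 CPM (467 to 723). These 3 ranges do not overlap between the groups. Other genes of mitosis ran the other way. Aurkb, the kinase of the chromosomal passenger complex, lay at 183 CPM in the cells high in G1/S RNA and 88.4 CPM in the cells low in it, higher in 6 of 6 libraries, and Prc1 was higher in 4 of 6. Top2a lay at 510 CPM in the cells high in G1/S RNA and 278 CPM in the cells low in it, and Nusap1 at 248 and 135 CPM, higher in 6 of 6 libraries. The ribonucleotide reductase subunit Rrm2, at 653 and 58.4 CPM, and Tyms, at 381 and 71.5 CPM, also separated the groups in 6 of 6 libraries. The cells high in G1/S RNA had a median of 6499 UMIs and those low in it 4670.5.

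Against cells at 0, G2/M cells had 2377 genes higher and 2100 lower at an adjusted p under 0.05, of 9575 genes tested outside the rule by edgeR's quasi-likelihood test on UMIs summed per library and class, with library as a term. These are 24.8% and 21.9% of the genes tested. Of the genes called, 588 were at least 2-fold higher and 79 at least 2-fold lower. Depth differs between the classes, and with comparison cells matched in depth 2160 genes were higher and 2051 lower, while thinning each cell to 2000 UMIs left 1424 and 1315 of fewer genes tested.

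The lists of mitosis describe the programme that the 9 genes were taken from, so that their direction is not independent evidence. Of the 34 tested genes of spindle, kinesins and cytokinesis all 34 rose, with a median log2 fold change of 5.05 against 0.00 over all genes tested. Cep55, which guides the final cut between daughter cells, had a lowest, median and highest library value of 58.0, 79.9 and 91.9 CPM in G2/M cells and 0.41, 0.53 and 1.94 CPM in cells at 0 (6.47 ± 0.17, log2 fold change with its SE, adjusted p = 8.62e-32). The spindle protein gene Spag5 lay at 44.0, 47.7 and 59.4 CPM against 0, 0.57 and 0.83 CPM (6.44 ± 0.21). Hmmr, a spindle-associated hyaluronan receptor, lay at 107, 122 and 146 CPM against 0.52, 1.53 and 2.46 CPM (6.20 ± 0.13), and the kinesins Kif20a and Kif23 rose by 5.96 ± 0.16 and 5.83 ± 0.16. In each of these 5 genes every library of G2/M cells lay above every library of cells at 0. The tubulin genes, which resting cells also use, rose less on the log2 scale: Tuba1b lay at 2461, 2623 and 2748 CPM against 805, 902 and 952 CPM (1.56 ± 0.03), and Tubb5 rose by 1.34 ± 0.02.

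Of the 29 genes of mitotic cyclins, kinases and checkpoint 28 rose and none fell (median 4.87). Plk1, a kinase that drives mitotic entry and centrosome maturation, lay at 97.5, 121 and 134 CPM in G2/M cells and 1.23, 1.67 and 2.98 CPM in cells at 0 (5.89 ± 0.12, adjusted p = 1.18e-35). Ccna2 lay at 212, 241 and 273 CPM against 2.45, 4.33 and 5.33 CPM (5.88 ± 0.09). Ube2s, a ubiquitin-conjugating enzyme of the anaphase-promoting complex, lay at 486, 551 and 692 CPM against 96.3, 105 and 135 CPM (2.36 ± 0.04). Bub3 of the spindle checkpoint, already present in cells at 0 at 116 to 140 CPM, rose by 1.32 ± 0.05. All 25 tested genes of centromere and kinetochore rose (median 4.25). Among them Ndc80, which binds spindle microtubules at the kinetochore, rose by 5.82 ± 0.17 and Ska1, which holds on to their ends, by 5.86 ± 0.19. Cenpa lay at 323, 370 and 489 CPM against 8.83, 11.9 and 17.1 CPM (4.99 ± 0.07).

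All 26 genes of condensin, HMG and chromatin rose (median 2.04). H2afz, a replacement histone, was abundant at 2532, 2673 and 3533 CPM in G2/M cells against 476, 499 and 694 CPM in cells at 0 (2.39 ± 0.03). H2afx, the histone variant that is phosphorylated at DNA breaks, rose by 4.38 ± 0.05. The replication-dependent histone gene Hist1h2al rose by 6.13 ± 0.08, but its level in G2/M cells differed widely between libraries, with 2199 and 663 CPM in the ST2 KO libraries, 960 and 462 CPM in the ST2 Het libraries, and 42.8 and 98.2 CPM in the wild-type libraries. The labels name the wild-type libraries with another date than the Het and KO libraries, and date and genotype cannot be told apart between them. Histone genes of this cluster have near-identical copies, between which counting can split reads, so the value of a single copy is uncertain.

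DNA replication genes outside the rule also rose, 35 of 39 with none lower (median 1.25). Tk1, thymidine kinase, lay at 269, 302 and 342 CPM in G2/M cells and 16.2, 25.9 and 30.4 CPM in cells at 0 (3.62 ± 0.07), and Rrm2 at 258, 375 and 449 CPM against 9.43, 12.1 and 18.7 CPM (4.83 ± 0.07). Slbp, which binds histone mRNA, lay at 183, 225 and 272 CPM against 104, 122 and 129 CPM (0.92 ± 0.05), without overlap. Of 24 G1 cyclins, brakes and exit genes, 15 rose and 6 fell, where 24.8% of all genes tested rose and 21.9% fell. The falls are thus near the share of all genes. Btg2, Cdk6, Mxd4, Ccnd1, Btg1 and Myc were the 6. Brakes on the cell cycle were among the risers. Cdkn2c, an inhibitor of CDK4 and CDK6, lay at 249, 300.2 and 403 CPM against 17.1, 22.8 and 29.8 CPM (3.74 ± 0.06), and Cdkn2d, of the same family, rose by 3.37 ± 0.10. Cdk4, the kinase that these inhibitors bind, lay at 255, 272 and 318 CPM against 174, 190.1 and 225 CPM (0.53 ± 0.04). Btg1, an antiproliferative gene, lay at 155, 183 and 203 CPM against 259, 263 and 311 CPM (-0.61 ± 0.05).

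Lists of microglial function held more genes that fell than rose. These falls are in CPM, relative to all UMIs of a class, and G2/M cells held more UMIs per cell. C1qa, among the genes that fell, had library medians of 32 to 41 UMIs per cell in G2/M cells and 26 to 34 in cells at 0. Whether other genes fell in UMIs per cell was not tested. Of 17 tested genes of the phagocytic state 10 fell and 2 rose (median -0.37), of 18 homeostatic microglia genes 14 fell and 1 rose (median -0.19), and of 17 complement and phagocytic receptor genes 13 fell and 1 rose (median -0.21). Over all genes tested 21.9% fell and 24.8% rose. Apoe, the lipid carrier, lay at 2774, 3361 and 3969 CPM in G2/M cells and 5156, 5521 and 8206 CPM in cells at 0 (-0.87 ± 0.04, adjusted p = 1.19e-23). Cd63, a tetraspanin of late endosomes, lay at 368, 409 and 559 CPM against 700.4, 735 and 1005 CPM (-0.91 ± 0.03), and the lysosomal protease gene Ctsd fell by 0.62 ± 0.02. In these 3 genes every library of G2/M cells lay below every library of cells at 0. The growth factor gene Igf1 fell by 1.27 ± 0.15 but was low in both classes, at 5.91 to 23.8 CPM against 13.3 to 43.8 CPM. Of the risers in the phagocytic list, Spp1, which encodes osteopontin, lay at 8.86, 39.6 and 121 CPM against 4.66, 21.5 and 36.1 CPM (1.30 ± 0.20), with overlapping ranges. It was higher in G2/M cells in 5 of 6 libraries, its log2 fold change was 0.70 without the second wild-type library, and it was not called in the ST2 KO and Het libraries alone (0.37).

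Among homeostatic genes, Cst3, which encodes the protease inhibitor cystatin C, lay at 13848, 14994 and 15621 CPM in G2/M cells and 18068, 19465 and 20789 CPM in cells at 0 (-0.39 ± 0.01), and the fructose transporter gene Slc2a5 fell by 0.62 ± 0.05. Cx3cr1, the fractalkine receptor gene, was the member that rose. The complement genes C1qb and C1qc fell by less: C1qb fell by 0.23 ± 0.02 and C1qc by 0.16 ± 0.02, each with overlapping ranges. The integrin gene Itgam fell to 84.9, 113 and 126 CPM in G2/M cells, against 165, 212 and 242 CPM in cells at 0 (-0.90 ± 0.06), and the scavenger receptor gene Stab1 fell by 0.90 ± 0.07. Of the 8 border macrophage genes, among them Stab1, 4 were tested, of which 2 rose and 1, Stab1, fell, beside 24.8% and 21.9% over all genes. The risers were Mrc1, the mannose receptor gene, at 185, 218 and 249 CPM in G2/M cells against 109, 118 and 147 CPM in cells at 0 (0.78 ± 0.05, without overlap), and Pf4, a chemokine gene (0.26 ± 0.10, with overlap). The gate limits the summed UMIs of a set of border macrophage genes that includes Pf4. The call of Pf4 is therefore not independent of how the cells were chosen, and no conclusion is drawn from it. The part of cells with border macrophage genes in the falls of microglial genes was not tested.

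By size alone the 12 largest falls among genes with at least 50 CPM were Hagh, Adgrg1, Slc12a2, Abca1, Matk, Pnpla7, Eva1b, Map1lc3a, Cd63, Stab1, Ypel3 and Tex264, with log2 fold changes between -1.198 and -0.90. Hagh, a glyoxalase of methylglyoxal clearance, lay at 16.7, 24.2 and 33.4 CPM in G2/M cells against 49.7, 59.7 and 70.6 CPM in cells at 0. Adgrg1, the adhesion receptor GPR56, lay at 58.1, 75.2 and 95.1 CPM against 147, 163 and 182 CPM (-1.15 ± 0.06), and Abca1, which exports cholesterol, at 43.0, 52.7 and 60.1 CPM against 86.4, 94.5 and 136 CPM (-1.05 ± 0.07). Map1lc3a encodes an LC3 protein of autophagosomes, and Tex264 a receptor for autophagy of the endoplasmic reticulum. None of the 12 genes had overlapping ranges between the classes, and the share of all genes without overlap was not counted. On mm10, Adgrg1 lies at chr8:94974751-95014217, Abca1 at chr4:53030787-53159895 and Apoe at chr7:19696109-19699188, each with the gene body as annotated in GENCODE.

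**Figure D2:**
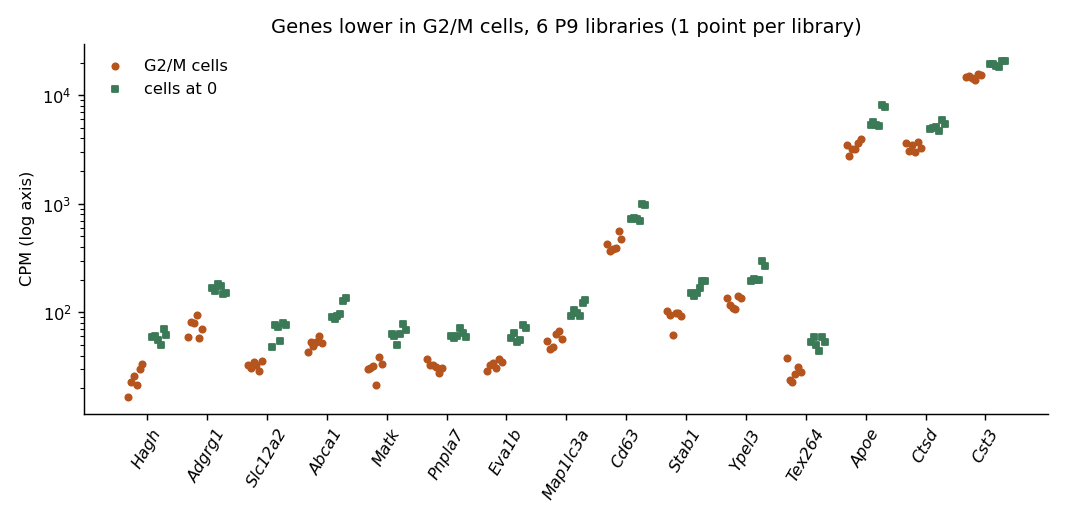
CPM (log axis) of the 12 genes with the largest falls and of Apoe, Ctsd and Cst3 in the 6 P9 libraries, with G2/M cells as circles and cells at 0 as squares, 1 point per library. In each gene every circle lies below every square, at 2774 to 3969 CPM against 5156 to 8206 CPM for Apoe.

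Other lists moved in part, and these counts stand beside the 24.8% higher and 21.9% lower over all genes tested. Of 17 immediate early genes 9 fell and 1 rose, 10 in all, where DESeq2 called 5. Klf6 was the riser. Jund, an AP-1 subunit, lay at 369, 435 and 761 CPM in G2/M cells and 630.5, 813 and 951 CPM in cells at 0 (-0.71 ± 0.05), with overlapping ranges, and Rhob at 274, 379 and 454 CPM against 495, 565 and 631 CPM (-0.65 ± 0.04), without overlap. Of 20 NF-kB inflammatory genes 7 fell and 2 rose, the risers being Ccl12 and Tnf, where DESeq2 called 5 in all. Tnf lay at 10.5, 17.4 and 35.5 CPM against 5.74, 12.4 and 15.5 CPM (0.82 ± 0.15) and was not called in the wild-type libraries alone, and Ccl12, a chemokine gene (0.20 ± 0.06), had a log2 fold change of -0.05 there and lost its call without the second ST2 KO (0.14) or the first ST2 Het library (0.08). Of 14 interferon response genes 4 rose, a share near that of all genes, and none fell. The chemokine gene Cxcl10, at 4.92, 16.4 and 112 CPM against 1.23, 7.09 and 14.98 CPM (1.88 ± 0.24), had its highest value in the first ST2 Het library, without which the log2 fold change was 1.17.

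Metabolic lists split by gene, against the same 24.8% and 21.9% of all genes. Of 16 glycolysis genes 7 rose and 4 fell, where DESeq2 called 7 in all: Gapdh lay at 890.2, 987 and 1009 CPM in G2/M cells against 700.4, 721 and 764 CPM in cells at 0 (0.42 ± 0.03), while hexokinase Hk2 fell by 0.85 ± 0.06 and aldolase Aldoa by 0.84 ± 0.05. Of 20 ribosome biogenesis genes 7 rose and 4 fell, the falls at about the share of all genes, with the snoRNP proteins Nop58 at 0.85 ± 0.09 and Nop56 at 0.67 ± 0.06. Of 18 sterol synthesis genes 4 rose and 1 fell, both below the shares of all genes, and DESeq2 called 2. Squalene epoxidase Sqle had a log2 fold change of 0.84 ± 0.12. Of 11 mitogen receptor and ligand genes 8 fell and 1, Pdgfb, rose. The receptor gene of the main microglial growth factor, Csf1r, lay at 2005, 2277 and 2413 CPM against 2286, 2604 and 2704 CPM (-0.19 ± 0.02), and Csf1, which encodes a ligand of this receptor, lay at 5.10, 8.51 and 12.1 CPM against 13.5, 15.5 and 16.9 CPM (-0.94 ± 0.17).

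G2/M cells were also set against 1370 P9 microglia called G1/S cells. Those held at least 4 UMIs of the 12 G1/S genes and at most 1 UMI of the 9 rule genes. Their median depth of 5414 UMIs was close to the 5522 of G2/M cells. The comparison does not fully separate G2 and mitosis from S phase, since 663 G2/M cells (39.1%) also held at least 4 G1/S UMIs. Of 8432 genes in neither rule, 1421 (16.9%) were higher and 1372 (16.3%) lower in G2/M cells. All members tested of the spindle (34), cyclin and kinase (29), centromere (25) and chromatin (26) lists were higher. Their medians were 4.03, 4.11, 3.13 and 1.43 against 0.00 over all genes. The G1/S cells were held to at most 1 UMI of the 9 rule genes, so the direction of mitotic genes is not independent evidence here either. Cenpf, a kinetochore protein that accumulates in G2, lay at 208, 213 and 229 CPM in G2/M cells and 0.97, 3.06 and 8.27 CPM in G1/S cells (5.93 ± 0.14, adjusted p = 8.06e-41), and Ccnb1, the main mitotic cyclin, at 189, 224 and 284 CPM against 2.07, 5.96 and 11.6 CPM (5.15 ± 0.12).

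The G1/S cells were chosen for RNA of replication genes, so the direction of genes from that phase is not independent evidence. Cdt1, which loads the replicative helicase, lay at 15.8, 27.9 and 38.5 CPM in G2/M cells and 62.6, 70.4 and 82.5 CPM in G1/S cells (-1.37 ± 0.13), the E2F target Cdca7 at 20.4, 28.2 and 31.8 CPM against 72.3, 78.2 and 102 CPM (-1.62 ± 0.11), and E2f1 itself fell by 1.07 ± 0.11. Within the replication list the 27 tested members split, 7 higher and 5 lower, where 16.9% of all genes were higher and 16.3% lower. The number lower is near the share of all genes. Tk1 (1.99 ± 0.08) and Rrm2 (2.99 ± 0.09) were among those higher. Cdkn1a, which encodes the p21 inhibitor of cyclin-dependent kinases, lay at 223, 315 and 409 CPM in G2/M cells against 74.6, 114 and 127 CPM in G1/S cells (1.52 ± 0.09), with no overlap.

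Of 19 ribosome biogenesis genes 11 were lower in G2/M cells than in G1/S cells and none higher (median -0.36), while DESeq2 called 4. Over all genes tested 16.3% were lower and 16.9% higher. The nucleolar chaperone gene Npm1 lay at 599, 640 and 722 CPM in G2/M cells and 783, 833 and 881 CPM in G1/S cells (-0.36 ± 0.04, adjusted p = 1.11e-12), without overlap. Genes of microglial function were lower here too, beside the same shares of all genes: 11 of 18 homeostatic genes fell and 1 rose, 9 of 17 phagocytic genes fell and 1 rose, and 13 of 17 complement and receptor genes fell and 1 rose. The purinergic receptor gene P2ry12 lay at 3210, 3362 and 3597 CPM against 4379, 4505 and 4829 CPM (-0.42 ± 0.02) and Apoe at 2763, 3348 and 3929 CPM against 3800, 4448 and 5745 CPM (-0.43 ± 0.03). The signal adaptor gene Tyrobp fell by 0.47 ± 0.03. Of 17 immediate early genes 4 rose and 4 fell, beside 16.9% and 16.3% over all genes, and DESeq2 called 3 in all. Klf6, at 157, 185 and 234 CPM against 87.8, 104 and 152 CPM (0.76 ± 0.06), was among those that rose. The heat shock gene Hspa1a fell by 1.11 ± 0.12, but in both classes it differed more between libraries than between classes, with 12.4 to 185 CPM in G2/M cells and 25.4 to 291 CPM in G1/S cells.

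The share of microglia that met the rule was 23.1% (152 of 657 cells, exact 95% Clopper-Pearson interval 19.96% to 26.6%) and 18.5% in the ST2 KO libraries, 16.2% and 18.5% in the ST2 Het libraries, and 18.98% and 20.35% in the wild-type P9 libraries. ST2 KO libraries averaged 20.8% ± 3.29 and ST2 Het libraries 17.3% ± 1.63 (SD, n = 2 each), a difference of 3.48 percentage points (two-sided exact permutation p = 0.333, the smallest that 2 against 2 libraries allow). The second library of each genotype had nearly the same share, with 149 of 806 cells in ST2 KO and 232 of 1255 cells in ST2 Het. The median depth of microglia was 5942 and 5275.5 UMIs in the ST2 KO libraries and 5179 and 5260 in the ST2 Het libraries, and after thinning each cell to 1000 UMIs the shares averaged 5.59% in ST2 KO and 5.97% in ST2 Het libraries, a difference of -0.39 points. G1/S cells made up 23.1% and 18.2% of microglia in the ST2 KO libraries, 18.7% and 16.3% in the ST2 Het libraries, and 13.1% and 12.7% in the wild-type libraries. The wild-type libraries carry another date in the labels and were shallower, with medians of 3800 and 4038 UMIs per microglia. Shares of G1/S cells were not computed after thinning, and the part of depth in them was not tested. Intervals cover counting error only.

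Microglia that met the rule were rare at P28. In the P28 libraries 1 of 2874 and 1 of 2935 microglia met the rule, 0.0348% and 0.0341%, against 18.98% and 20.35% at P9 in wild-type mice. P28 cells were shallower, with medians of 2309.5 and 2236 UMIs against 3800 and 4038 at P9. After thinning to 1000 UMIs the share was 0.0175% at P28 and 7.09% at P9, and after thinning to 2000 UMIs 0.0247% and 14.3%. Any UMI of the 9 genes was seen in 0.974% and 1.09% of P28 microglia against 40.5% and 42.3% in the wild-type P9 libraries. With 2 libraries per age these shares are given with no test.

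**Figure D3:**
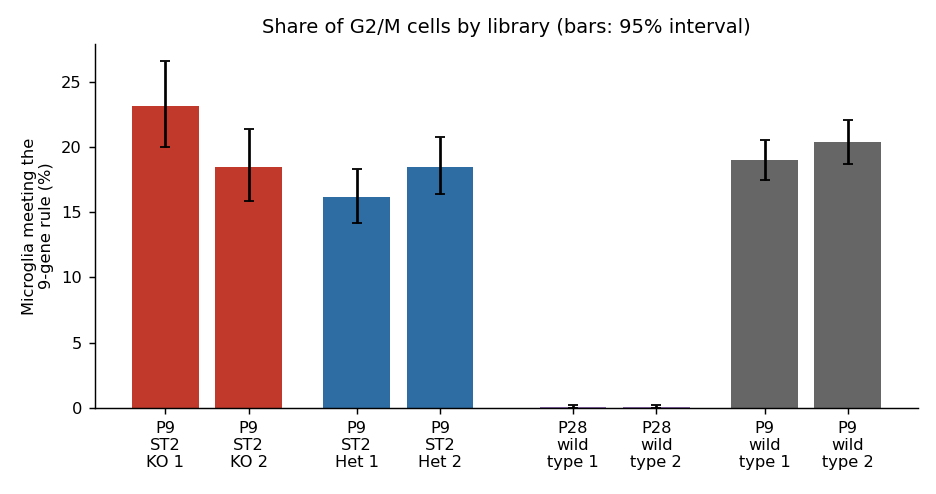
Percentage of microglia meeting the 9-gene rule in each library, with exact 95% intervals for counting error. ST2 KO and ST2 Het libraries at P9 lie between 16.2% and 23.1%, with the second library of each at 18.5%, and the P28 libraries stand at 0.0348% and 0.0341% against 18.98% and 20.35% in wild-type mice at P9.

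Within G2/M cells, ST2 KO libraries were compared with ST2 Het libraries in a fit with all 6 P9 libraries. In the ST2 KO libraries 27 of 8974 genes (0.301%) were higher and 17 (0.189%) lower, and 7 of 17 immediate early genes and 4 of 20 NF-kB genes were among those lower. Of the tested genes in the cyclin (29), spindle (34), centromere (25) and chromatin (26) lists, none was called in either direction by edgeR or by DESeq2, and 5, 4, 3 and 0 of them had an unadjusted p under 0.05 in edgeR. Nfkbia, the inhibitor that NF-kB induces, lay at 52.3 and 80.6 CPM in the ST2 KO libraries against 228 and 323 CPM in the ST2 Het libraries (-2.07 ± 0.19, adjusted p = 1.3e-05). Nfkbiz, a nuclear co-regulator of the same family, lay at 6.98 and 20.6 CPM against 55.1 and 75.5 CPM (-2.29 ± 0.31), a log2 fold change that was -1.67 without the first ST2 KO library and -3.21 without the second. No member of these lists rose, and the medians were -0.57 for NF-kB and -0.65 for immediate early genes against 0.00 over all genes. DESeq2 called 2 of the NF-kB and 4 of the immediate early genes.

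The AP-1 gene Jun lay at 347 and 341 CPM in the ST2 KO libraries against 607 and 730 CPM in the ST2 Het libraries (-0.96 ± 0.10, adjusted p = 4.72e-05), Junb at 179 and 231 CPM against 371 and 525 CPM (-1.14 ± 0.15), and Fos at 226 and 329 CPM against 516 and 668 CPM (-1.10 ± 0.15). The libraries of the genotypes did not overlap for these genes. The wild-type P9 libraries, which carry another date in the labels and were not part of this contrast, lay at 313 and 319 CPM for Jun, 210 and 226 CPM for Junb, and 313 and 261 CPM for Fos, nearer to the ST2 KO than to the ST2 Het libraries. Of 24 G1 cyclins, brakes and exit genes 2 were lower, Btg2 and Cdkn1a, and of 39 replication genes 1 was higher, Pcna. Junb and Fos were no longer called without the first ST2 KO library (-0.96 and -0.85) or without the second ST2 Het library (-0.87 and -0.91), while Jun and Nfkbia kept their calls in every alternative.

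Among the genes higher in ST2 KO than in ST2 Het libraries, the ribosomal protein genes Rpl6, Rpl15 and Rpl27 rose by 0.57 ± 0.07, 0.71 ± 0.09 and 1.27 ± 0.19. Ribosomal protein genes have processed copies that share their reads, so these values are uncertain. The Y-linked genes Ddx3y and Eif2s3y were called higher and Xist, the RNA of the inactive X chromosome, lower (-0.62 ± 0.05): no Xist UMI was found in 22.4% and 27.5% of G2/M cells of the ST2 KO libraries against 3.43% and 2.16% of those of the ST2 Het libraries. These sex-linked genes moved with genotype, and their part in the other differences was not tested. Without the second ST2 Het library 0 genes were higher and 5 lower (edgeR, 444 genes at an unadjusted p under 0.05), without the first ST2 KO library 2 and 3, and without the second ST2 KO library 62 and 15. Without the first ST2 Het library 7 were higher and 12 lower, without either wild-type library 47 or 48 and 21, and DESeq2 called 6 and 8.

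**Figure D4:**
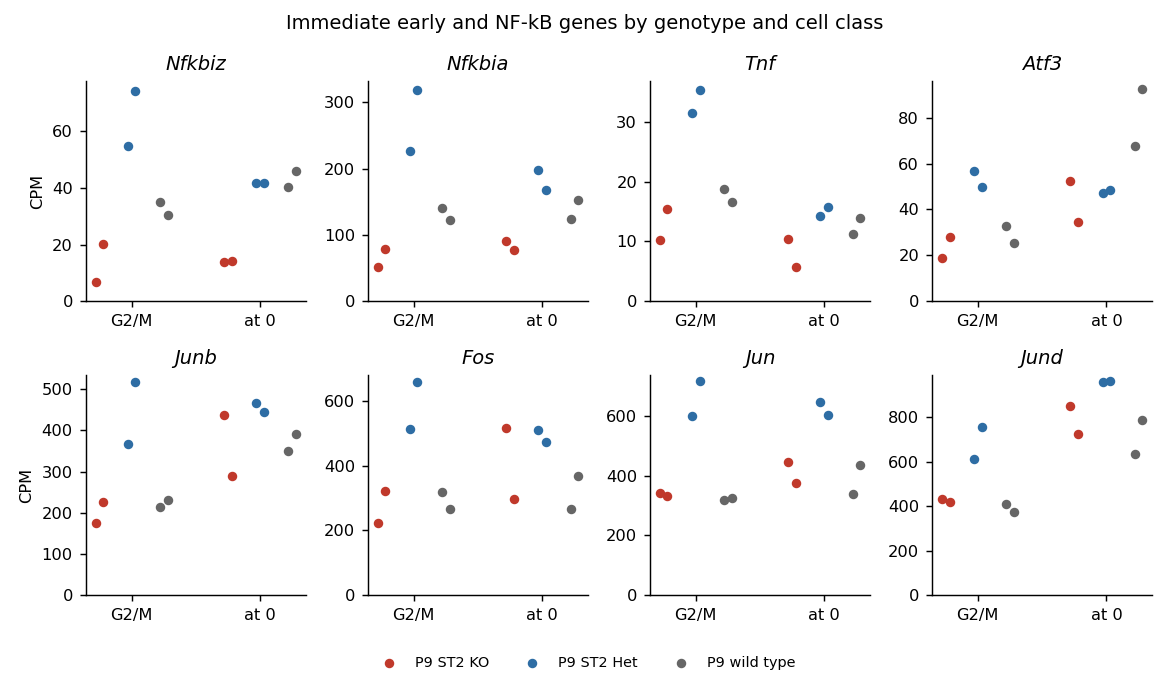
CPM of 8 immediate early and NF-kB genes, chosen among those called lower in G2/M cells of the ST2 KO libraries. Each panel has G2/M cells on the left and cells at 0 on the right. Points are 2 libraries for each of ST2 KO, ST2 Het and wild type at P9. In G2/M cells the ST2 KO points lie below the ST2 Het points in all 8 genes, a direction set by this choice. Junb, for example, lay at 179 and 231 CPM against 371 and 525 CPM.

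Whether the genotypes differed in another way in G2/M cells than in cells at 0 was tested as an interaction. Of 10371 genes 1 was higher (0.00964%) and 1 lower (0.00964%), with 503 genes at an unadjusted p under 0.05. Junb was the lower gene (-0.81 ± 0.15, adjusted p = 0.0305): in cells at 0 it lay at 437 and 289 CPM in the ST2 KO libraries against 465.6 and 445 CPM in the ST2 Het libraries, where the genotypes differed less than in G2/M cells. The call was lost without the first ST2 KO library (-0.32, adjusted p = 0.925). DESeq2 called 0 genes (36 at an unadjusted p under 0.05), as did edgeR with a rule threshold of 6 UMIs (481). Nfkbia was lower in the ST2 KO libraries in cells at 0 as well, at 91.0 and 77.7 CPM against 198 and 167 CPM, and its interaction was not called (-0.96 ± 0.23, adjusted p = 0.282). The higher gene, S100a9, a neutrophil calgranulin, rests on few cells (5.28 ± 0.95, adjusted p = 0.0282). In cells at 0 of the first ST2 Het library it had 330 UMIs, of which 319 were in 1 cell, and in G2/M cells it had 12 UMIs in the second ST2 KO library, 2 in the first ST2 Het library and none in the other two. Without the first ST2 Het library its log2 value was -0.39.

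In bulk libraries the 9 genes give the summed RNA of dividing cells, and fewer such cells and less of this RNA per cell cannot be told apart. In cultures given IL-33 all 9 genes were lower than in medium by fitted fold change, between -0.16 and -0.66 on the log2 scale, but none was called by edgeR (1, Mki67, at an unadjusted p under 0.05) or by DESeq2, where 4.23% of 10815 genes were called higher and 3.54% lower. Mki67 had a lowest, median and highest value of 5.09, 8.35 and 11.6 CPM with IL-33 against 6.18, 12.1 and 19.05 CPM in medium (-0.54 ± 0.22), and Nusap1 1.59, 4.09 and 7.48 CPM against 3.24, 6.52 and 8.91 CPM (-0.66 ± 0.32). The groups overlapped for every one of the 9 genes.

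In microglia sorted as Tau-GFP plus, which the design text calls pro-phagocytic, all 9 genes were higher than in Tau-GFP negative cells, where 20.7% of 12138 genes were called higher and 16.9% lower. The log2 fold changes lay between 0.49 and 1.12. Ube2c lay at 86.1, 111 and 136 CPM in Tau-GFP plus cells against 43.0, 49.4 and 60.9 CPM in Tau-GFP negative cells (1.12 ± 0.11), and Nusap1 at 92.4, 109 and 133 CPM against 41.3, 57.6 and 81.8 CPM (0.91 ± 0.12). Ube2c, Ccnb2 and Nusap1 did not overlap between the groups, while the share of all genes without overlap was not counted. All 8 plus libraries exceeded the negative median in each of the 9 genes. Mki67 showed the smallest difference, at 180, 221 and 310.2 CPM against 120, 166 and 223 CPM (0.49 ± 0.12).

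Cells with high TMRM staining also held more of all 9 genes than cells with low staining, where 20.4% of 10714 genes were called higher and 9.84% lower by limma on log2(FPKM + 1). The differences lay between 0.88 and 1.27 on that scale. Prc1 lay at 29.3, 33.4 and 42.5 FPKM in TMRM high libraries against 11.3, 14.1 and 16.4 FPKM in TMRM low libraries (1.23 ± 0.08), and Birc5 at 70.6, 74.5 and 89.7 FPKM against 30.2, 39.0 and 44.1 FPKM (0.98 ± 0.07). In 8 of the 9 genes the groups did not overlap, the exception being Cenpe, at 3.14, 5.10 and 7.51 FPKM against 0.58, 2.68 and 4.24 FPKM (0.88 ± 0.19). All 10 TMRM high libraries exceeded the TMRM low median in each gene. The share of all genes tested without overlap was not counted.

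**Figure D5:**
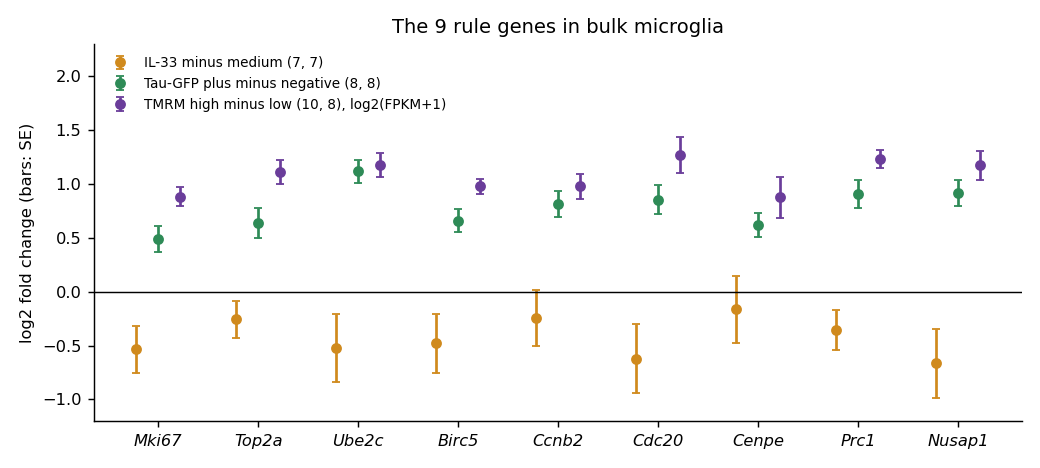
Log2 fold change (bars, SE) of the 9 rule genes in IL-33 against medium, Tau-GFP plus against negative and TMRM high against low, the last on the log2(FPKM + 1) scale. All 9 points lie below 0 for IL-33 with none called, and between 0.49 and 1.27 for the sorted cells with all called.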

How the data were processed

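Cell Ranger, TopHat2 2.0.10, Cufflinks 2.0.2, Bowtie2, RSEM and DESeq2, and the build mm10, are listed without their roles per the submitters' processing notes. The deposited single-cell values are raw UMI counts, those of the IL-33 and Tau-GFP libraries are RSEM expected counts deposited by the authors and rounded here to whole numbers, and those of the TMRM libraries are FPKM values deposited by the authors. Of the expected count columns, 5 matched no sample label and were not used, and the libraries used held 7709047 to 11826389 expected counts. The read depth behind the FPKM values is not known.

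UMIs were summed per library and class and tested with edgeR 4.0.16 (quasi-likelihood, TMM, Benjamini-Hochberg adjustment over all genes tested) in R 4.3.3, with DESeq2 1.42.0 as an alternative. CPM are scaled within each fit, so that levels of a gene differ slightly between comparisons. FPKM were tested with limma 3.58.1 on log2(FPKM + 1), among genes reaching 1 FPKM. SE values are those of the log2 fold change. The labels do not say whether libraries of a group came from separate animals, so p-values measure the spread between these libraries. Named genes are the 12 largest rises and falls with at least 50 CPM and the same direction in all 6 libraries, up to 4 members of each list by size of change and level, and the 8 genes per direction with the smallest adjusted p between genotypes. The cells, genes and lists were chosen with earlier results of these data known. Doublets were not removed. Tests were checked on simulated data. Coordinates are those of GENCODE on mm10.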

Additional observations from a re-analysis of the deposited data

Results flagged for a closer look

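Prc1 in the TMRM high libraries had a highest value of 42.5 FPKM that stood apart from the other libraries of its group. It was the single case among 54 groups of 7 to 10 bulk libraries examined, where chance gives about 1 in 20.

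The genotype difference of Junb differed between G2/M cells and cells at 0 by -0.81 on the log2 scale, and that of S100a9 by 5.28, each by the interaction test. For S100a9, 319 of the 330 UMIs in the cells at 0 of the first ST2 Het library were in 1 cell, and 147 of the 156 in those of the second wild-type library.

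Outside the microglia gate, 24 cells of adequate quality at P9 held at least 4 UMIs of the 9 genes. Of these, 23 reached the limit on border macrophage genes and 1 had no C1qa UMI.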

How the results depend on the processing

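Of the named genes called, 66 of 74 against cells at 0, 56 of 75 against G1/S cells and 3 of 18 between genotypes kept direction and call under every alternative run, as did all 9 rule genes in the Tau-GFP and TMRM sorts. Ccl12 against cells at 0 had a log2 fold change of -0.053 in the wild-type libraries alone. Against cells at 0, DESeq2 called 1583 genes higher and 1383 lower, and thinning to 2000 UMIs 1424 and 1315; leaving out a library gave 2077 to 2303 and 1767 to 2096. Against G1/S cells, DESeq2 called 735 and 632, thinning 667 and 753, and the wild-type libraries alone 986 and 877; leaving out a library gave 1247 to 1344 and 1156 to 1296. Between genotypes, 111 genes were higher and 41 lower with no filter on low counts, 6 and 8 by DESeq2, and 16 and 8 without cells holding markers of other types than border macrophages; leaving out a library gave 0 to 62 and 3 to 21. For the interaction the counts were 3 and 5 with no filter, 0 and 0 by DESeq2 and with a rule threshold of 6 UMIs, and 3 and 7 without cells holding other markers; leaving out a library gave 1 to 3 and 1 to 7. S100a9 had -0.34 without cells holding other markers and -0.39 to 5.68 with a library left out. The genotype difference in share was -0.39 points after thinning to 1000 UMIs, 1.75 after thinning to 2000 UMIs, and 1.15 to 5.80 points with a library left out. The P28 difference was -21.7 points at a threshold of 3 UMIs, -16.3 at 6, and -7.07 and -14.3 after thinning to 1000 and 2000 UMIs, and -20.3 to -18.9 with a library left out. The causes were not tested.

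The main fits did not pair libraries by replicate number. Same-numbered deviations of ST2 KO and Het correlated at 0.0734, and pairs over 0.1 were 2 of 7 for IL-33, 5 of 8 for Tau-GFP and 2 of 8 for TMRM. In Tau-GFP, 4 of 8 plus libraries correlated best with the negative library of their own number. Whether those libraries were paired is not known, and all 9 rule genes were also called higher there with a replicate block. With a replicate block, 58 genes were higher and 20 lower between genotypes, and 1 rule gene, Cdc20, was called lower with IL-33 (-0.70). With the library block removed, 975 genes were higher and 801 lower than in G1/S cells, and the interaction gave 0 and 0.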

Other observations

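Xist, chosen after its values were seen, was higher in G2/M cells than in cells at 0 by 0.57 ± 0.02 on the log2 scale, in 6 of 6 libraries.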
